A study of Homo sapiens with 14 samples.

Results

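The genes of the proteasome were followed through the RNA-seq libraries of 2 human leukemia cell lines. Members were the gene rows whose symbol is PSMA, PSMB, PSMC, PSMD or PSME followed by a number, without the interferon-inducible catalytic genes PSMB8 and PSMB9. This rule gave 40 of 16336 gene rows, and it used no measured value. They were 16 genes of the 20S catalytic core (PSMA1 to PSMA8, PSMB1 to PSMB7 and PSMB10), 20 genes of the 19S regulatory particle (PSMC1 to PSMC6 and PSMD1 to PSMD14) and the 4 activator genes PSME1 to PSME4. The set goes by the name of constitutive subunits, but PSMB10 is itself an inducible subunit, and PSMA8 is known as a testis form. PSMA8 had rows in the MV4;11 tables only, so 39 members were tested in EOL-1. PSMB11, a thymus form that the rule would have taken, had no gene row in either line.

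MV4;11 is a human acute myeloid leukemia line with an MLL fusion, and EOL-1 is a human eosinophilic leukemia line. The study asked how the transcriptome responds to loss of EZH2, the catalytic subunit of Polycomb repressive complex 2, and of the transcription factor cMyc. MV4;11 cells carried a short hairpin against EZH2 (shEZH2), a guide RNA against cMyc (sgcMyc_1 or sgcMyc_5), the hairpin control EV or the guide control sgEV. EOL-1 cells carried a guide against EZH2 (sgEZH2) or the control sgEV. All 7 groups, controls included, received doxycycline at 1 µg/ml for 4 days, and each group had 2 libraries. Whether a line was a clone or a pool, and which promoter drove each construct, is not given in the sources used here. No label states that paired libraries are independent cultures, and the p-values therefore speak only of the spread between libraries, which may be technical. In bulk RNA, fewer cells of a type and less RNA per cell cannot be told apart.

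Gene counts came to 13313052 to 16274568 per library in MV4;11 and 24574102 to 30256823 in EOL-1. EZH2 was at 9.75 and 9.70 CPM (counts scaled to library size) in shEZH2 cells, against 73.3 and 75.8 in EV cells, and at 27.8 and 26.1 CPM in EOL-1 sgEZH2 cells, against 70.7 and 70.4 in sgEV cells. MYC transcript was higher, not lower, in the libraries labelled sgcMyc, at 866 and 872 CPM with guide 1 and 818 and 822 with guide 5, against 658 and 660.4 with sgEV. The protein level is not given, and a Cas9 cut, if the guides direct one, need not lower the transcript. The MYC values therefore check neither the labels nor the loss of the protein. The libraries of sgcMyc_5 stood apart, with a chi-square per degree of freedom of 5.47 between them, against 1.47 to 3.21 in the other groups. The myeloid markers CD33, SPI1, CEBPA, CSF3R, FLT3, LYZ and MPO passed the filter on low counts in every table. The eosinophil markers IL5RA, CLC, PRG2 and EPX passed it in none, EOL-1 included.

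The proteasome degrades proteins tagged with ubiquitin. Its core is a stack of alpha and beta rings, in which PSMB6, PSMB7 and PSMB5 carry the caspase-like, trypsin-like and chymotrypsin-like activities, and the 19S particle binds ubiquitin chains, removes them and unfolds the substrate with its ATPases. Cytokines can replace the 3 catalytic subunits by PSMB9, PSMB10 and PSMB8, which gives the immunoproteasome, and PSME1 with PSME2, PSME3 or PSME4 can cap the core in place of the 19S particle. When proteasome activity falls, the transcription factor NFE2L1 is known to raise subunit genes together. Leukemia and myeloma cells are known for their sensitivity to inhibitors of PSMB5.

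All members passed the filter wherever they had a row. The lowest estimated count was 120.0, for PSMA8, and the lowest of any other member was 259. Together they took 0.526 and 0.536% of the scaled counts in shEZH2 libraries, against 0.530 and 0.548% in EV libraries. Their share was 0.437 and 0.446% with sgcMyc_1 and 0.441 and 0.477% with sgcMyc_5, against 0.425 and 0.428% with sgEV. In EOL-1 it was 0.567 and 0.590% with sgEZH2, against 0.579 and 0.581% with sgEV. Only with sgcMyc did both groups of libraries lie wholly above their control, the second library of sgcMyc_5 highest.

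Few of these genes differed between shEZH2 and EV cells of MV4;11, and by small amounts. By edgeR's quasi-likelihood test with Benjamini-Hochberg adjustment over all 13591 genes, 3 members rose and 4 fell at an adjusted p under 0.05, which is 7 of 40 where 27.7% of all genes tested were called (13.4% higher and 14.2% lower). PSMA6 rose the most and PSME2 fell the most. The median log2 fold change of the members was -0.04, against 0.00 for all genes tested. In 10 members both shEZH2 libraries lay above both EV libraries and in 17 below, where 32.1% and 31.7% of all genes did so. By class, 3 of 16 core genes rose and 2 fell, 1 of 20 regulatory-particle genes fell, and 1 of 4 activator genes fell.

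In the core, PSMA6, a subunit of the alpha ring that gates entry to the chamber, had 316 and 312 CPM in shEZH2 cells, against 251 and 270.2 in EV cells. Both shEZH2 libraries lay above both EV libraries, and the log2 fold change was 0.27 ± 0.04 (SE, adjusted p = 0.000941). Its pseudogene PSMA6P1 had a row of its own with 23.4 and 38.1 estimated counts, against 25.2 and 28.0, and reads shared between such copies are uncertain. The catalytic PSMB7 was at 129 and 127 CPM, against 108 and 116 (log2 fold change 0.19 ± 0.05, adjusted p = 0.0160). PSMB5, the target of proteasome inhibitors, was at 79.3 in both libraries, against 70.3 and 72.3 (0.15 ± 0.05, adjusted p = 0.0447). Both rose without overlap of the libraries. The remaining catalytic subunit, PSMB6, was at 68.6 and 69.6 CPM, against 67.4 and 68.0, which did not pass (0.03 ± 0.05, adjusted p = 0.711). PSMB10 was at 123 and 122 CPM, against 128 and 137, and did not pass either (-0.11 ± 0.05, adjusted p = 0.112).

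The 2 core genes that fell were PSMB2, a beta-ring subunit without catalytic activity, and PSMA4 of the alpha ring. PSMB2 was at 148 and 153 CPM in shEZH2 cells, against 169 and 177 in EV cells (log2 fold change -0.20 ± 0.05, adjusted p = 0.00600). PSMA4 was at 188 and 197 CPM, against 207 and 214 (-0.13 ± 0.04, adjusted p = 0.0477). In both genes the shEZH2 libraries lay below the EV libraries. In the regulatory particle the only call was PSMD9, an assembly chaperone of the ATPase base that is not part of the finished particle, at 37.7 and 38.9 CPM against 43.8 and 43.4 (-0.19 ± 0.06, adjusted p = 0.0414). None of the 6 ATPases and none of the 8 lid subunits passed, with log2 fold changes of -0.15 to 0.04 and -0.05 to 0.11.

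Among the activators, PSME2, which with PSME1 forms the interferon-inducible PA28 ring, was at 123 and 134 CPM in shEZH2 cells, against 155 and 170.4 in EV cells. The libraries did not overlap, and the log2 fold change was -0.34 ± 0.06 (adjusted p = 0.00136). Its partner PSME1, whose gene lies on chromosome 14 with 1 coding gene between them, was at 175 and 188 CPM, against 194 and 203, and missed the threshold (-0.13 ± 0.05, adjusted p = 0.0617). The nuclear activator PSME3 was at 241 and 235 CPM, against 233 and 230 (0.04 ± 0.04, adjusted p = 0.496), and PSME4, which acts in histone turnover, was at 143 and 141, against 138 and 129 (0.09 ± 0.05, adjusted p = 0.215). A PSME2 pseudogene row, PSME2P2, held 50.1 and 52.8 estimated counts, against 77.3 and 67.0 (log2 fold change -0.52, adjusted p = 0.0582), so the split of reads between the copies is uncertain.

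PSMA6 and PSME2 stayed past the threshold under each of 12 alternative settings. PSMB2 was lost in 1 of them, without the first shEZH2 library (adjusted p = 0.0967). The other 4 calls were lost without either shEZH2 library, with adjusted p-values of 0.233 without the first and 0.217 without the second for PSMB5, 0.133 and 0.0681 for PSMB7, 0.256 and 0.133 for PSMD9, and 0.444 and 0.129 for PSMA4. Without the first EV library PSMB5 (adjusted p = 0.0721) and PSMD9 (adjusted p = 0.0699) were lost too, and without the second PSMA4 (adjusted p = 0.0532). DESeq2 called none of these 4, with adjusted p-values of 0.101 to 0.411. Spike-in scaling lost all 4 as well, with adjusted p-values of 0.142 for PSMA4, 0.441 for PSMB5, 0.250 for PSMB7 and 0.105 for PSMD9. PSMA4 was also lost with no filter on low counts (adjusted p = 0.0543) and without the robust step (adjusted p = 0.0655). The counts of calls moved with single libraries, over all genes tested as well as over the members. The members' median log2 fold change was -0.03 without the first shEZH2 library and -0.04 without the second. It was -0.06 without the first EV library and -0.01 without the second. For all genes tested the median in these fits was -0.00 to 0.01. Mitochondrial genes took 2.79 and 2.80% of counts in shEZH2 libraries, against 2.18 and 2.22% in EV libraries. Of 7 myeloid markers 3 rose and 2 fell, with a summed level of 1542 to 1577 CPM, against 1369 to 1398. Over these libraries LYZ ran from 186 to 506 CPM and FLT3 from 399 to 549. Of 4 monocytic markers 2 fell (80.2 to 83.9 CPM, against 90.4 to 91.0). The part of these in the members' values was not tested.

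**Figure D1:**
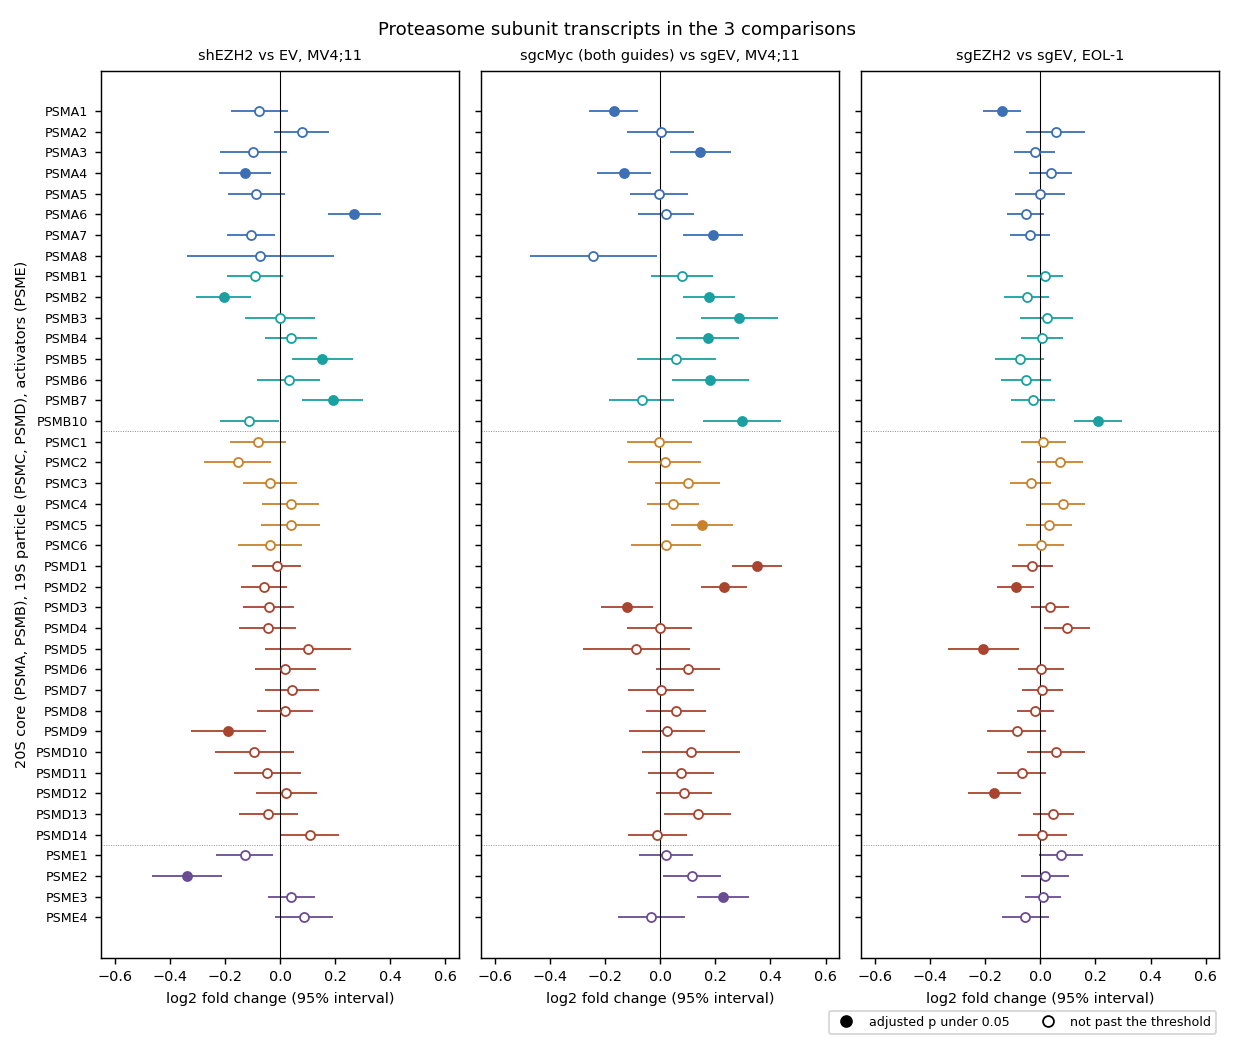
Log2 fold change of each member (horizontal axis) with its 95% interval in the 3 comparisons, from edgeR's quasi-likelihood fit. Filled points passed an adjusted p of 0.05 and open points did not. The largest absolute values are 0.34 for shEZH2 (PSME2), 0.35 for sgcMyc (PSMD1) and 0.21 for sgEZH2 in EOL-1 (PSMB10), and no member is filled in both EZH2 panels.

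In the libraries labelled sgcMyc more members were higher than lower. Taking both guides together, 11 of 40 members rose and 3 fell, where 37.3% of the 13948 genes tested were called (18.6% higher and 18.7% lower). The members' median log2 fold change was 0.06, against -0.00 for all genes tested. By class, 7 of 16 core genes rose and 2 fell, 3 of 20 regulatory-particle genes rose and 1 fell, and 1 of 4 activator genes rose. In 16 members all 4 sgcMyc libraries lay above both sgEV libraries and in 3 they lay below, where 26.6% and 26.7% of all genes did so.

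PSMD1, a scaffold subunit of the 19S base, had the largest fold change of any member. It was at 156 and 153 CPM with guide 1 and 157 and 156 with guide 5, against 122 and 122 with sgEV. All 4 libraries lay within a few CPM of each other and clear of the control, with a log2 fold change of 0.35 ± 0.04 (adjusted p = 2.76e-05). PSMD2, the other scaffold subunit, which binds shuttle factors, was at 217 and 216 CPM with guide 1 and 223 and 218 with guide 5, against 184 and 189 (0.23 ± 0.04, adjusted p = 0.000517). These were the 2 genes classed here as non-ATPase base genes, and both rose. The ubiquitin receptor PSMD4, which was classed apart from them, did not pass. Of the 6 ATPases, PSMC5 rose, at 118 and 124 CPM with guide 1 and 118 and 129 with guide 5, against 114 and 106 (0.15 ± 0.05, adjusted p = 0.0379). The lid subunit PSMD3 fell, at 117 and 116 CPM with guide 1 and 122 and 127 with guide 5, against 130 and 133 (-0.12 ± 0.04, adjusted p = 0.0448). The 7 other lid subunits did not pass.

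Of the structural beta subunits of the core, PSMB2, PSMB3 and PSMB4 rose and PSMB1 did not pass. PSMB3 was at 108 and 106 CPM with guide 1 and 104 and 123 with guide 5, against 92.2 and 88.6 with sgEV (log2 fold change 0.29 ± 0.06, adjusted p = 0.00405). PSMB2 was at 131 and 132 with guide 1 and 135 and 141 with guide 5, against 119 and 119 (0.18 ± 0.04, adjusted p = 0.00602). The sgcMyc libraries lay above the control in both genes. The inducible PSMB10 was at 111 and 117 with guide 1 and 104 and 123 with guide 5, against 91.3 and 93.6 (0.30 ± 0.06, adjusted p = 0.00348), again without overlap. PSMB6 rose as well, at 50.4 and 54.2 with guide 1 and 55.2 and 62.0 with guide 5, against 49.5 and 48.2 (0.18 ± 0.06, adjusted p = 0.0429).

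The catalytic partners PSMB5 and PSMB7 did not pass. PSMB5 was at 57.9 and 60.1 CPM with guide 1 and 62.0 and 72.7 with guide 5, against 59.4 and 61.7 (0.06 ± 0.07, adjusted p = 0.525). PSMB7 was at 87.5 and 90.1 with guide 1 and 85.3 and 96.3 with guide 5, against 93.4 and 94.8 (-0.07 ± 0.05, adjusted p = 0.368). In both genes the libraries overlapped. The alpha ring was split, with PSMA7 (0.19 ± 0.05, adjusted p = 0.00934) and PSMA3 (0.14 ± 0.05, adjusted p = 0.0418) higher and PSMA1 (-0.17 ± 0.04, adjusted p = 0.00597) and PSMA4 (-0.13 ± 0.04, adjusted p = 0.0357) lower. PSMA1 was at 127 and 125 CPM with guide 1 and 133 and 133 with guide 5, against 144 and 148, without overlap, whereas PSMA4 overlapped its control. The antisense gene PSMA3-AS1 had a log2 fold change of 0.30 (adjusted p = 0.00561), and since the use of strand in counting is not stated, its reads and those of PSMA3 cannot be told apart.

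PSME3 was the activator that rose, at 178 and 178 CPM with guide 1 and 183 and 192 with guide 5, against 160.2 and 151 with sgEV (log2 fold change 0.23 ± 0.04, adjusted p = 0.00120). Its libraries did not overlap. PSME1 was at 160.0 and 157 with guide 1 and 155 and 165 with guide 5, against 152 and 162 (0.02 ± 0.04, adjusted p = 0.756). PSME2 was at 100.2 and 104 with guide 1 and 108 and 116 with guide 5, against 97.3 and 100.1 (0.11 ± 0.05, adjusted p = 0.0811). PSME4 was at 101 and 93.5 with guide 1 and 110 and 97.8 with guide 5, against 104 and 102 (-0.03 ± 0.06, adjusted p = 0.690). None of these 3 passed.

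**Figure D2:**
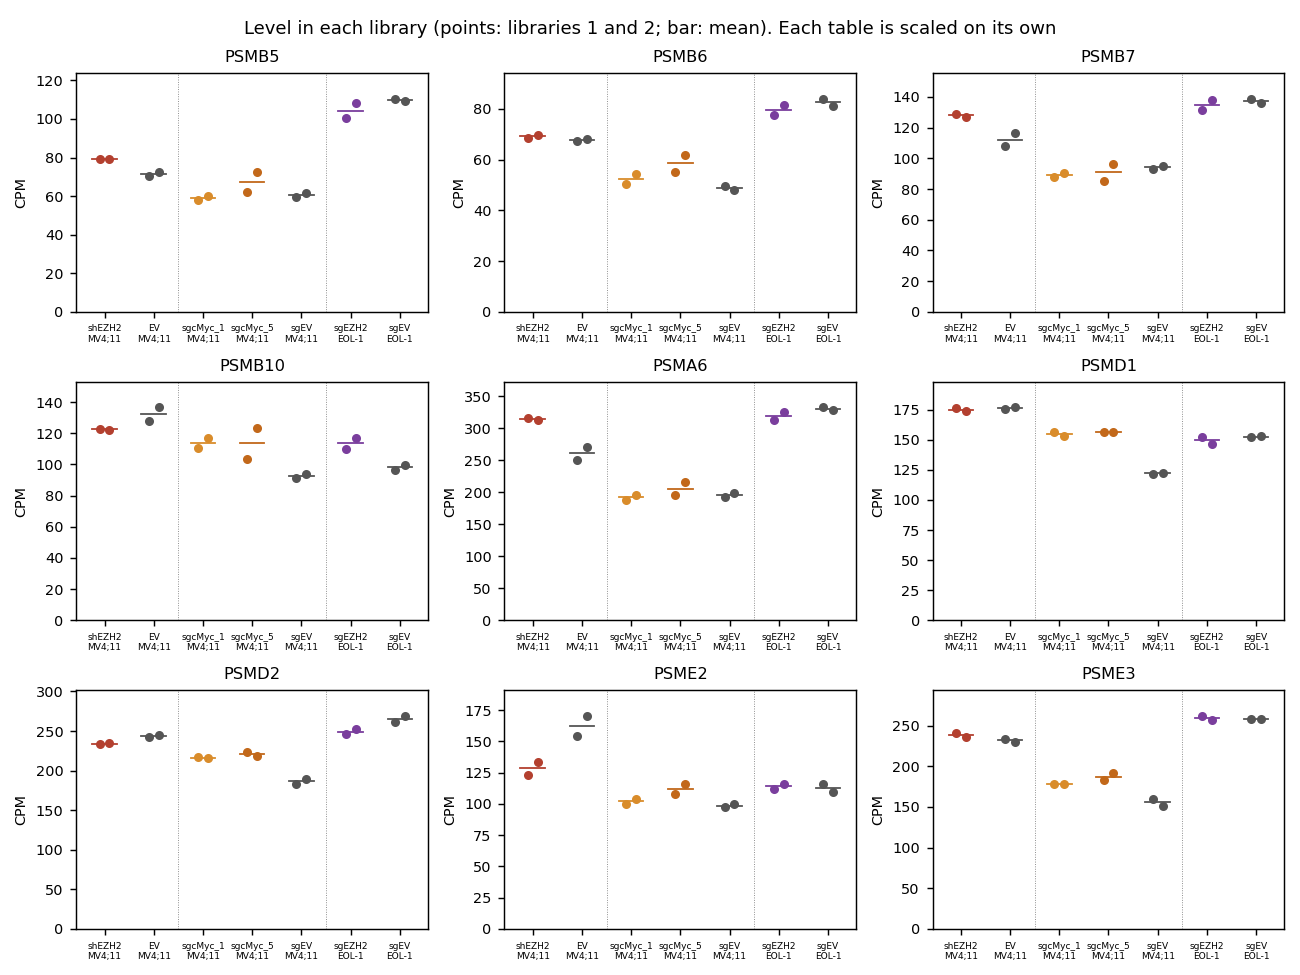
CPM (vertical axis, from 0) of 9 members in each library, points for libraries and a bar for the mean of a group, with dotted lines between tables that were scaled separately. PSMD1 stands at 153 to 157 CPM in the 4 sgcMyc libraries against 122 in both sgEV libraries, and PSME2 at 123 and 134 with shEZH2 against 155 and 170.4 with EV.

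The 2 guides share the sgEV control, so their values are given side by side. With guide 1, 6 members rose and 3 fell, where 32.2% of all genes were called, and with guide 5, 10 rose and 0 fell, where 31.2% were called. PSMD1 had a log2 fold change of 0.34 with guide 1 and 0.36 with guide 5, PSMD2 0.22 and 0.25, PSMB3 0.25 and 0.33, PSMB10 0.30 and 0.29, PSME3 0.19 and 0.26, and PSMB2 0.14 and 0.21. Each of these 6 passed with either guide by edgeR. With guide 1, DESeq2 did not call PSMB2 (adjusted p = 0.174) or PSMB3 (adjusted p = 0.0701). PSMA7, PSMB4, PSMB6 and PSME2 passed with guide 5, and PSMA1, PSMA4 and PSMD3 were lower with guide 1. Of these, DESeq2 did not call PSMB4 (adjusted p = 0.123), PSMB6 (adjusted p = 0.101), PSME2 (adjusted p = 0.119) or PSMD3 (adjusted p = 0.113). Spike-in scaling lost PSMA1, PSMA4, PSMD3 and PSMB2 with guide 1 (edgeR adjusted p = 0.330, 0.301, 0.502 and 0.0681). Tested directly, guide 5 against guide 1 gave 0 of 40 members by edgeR, 0 by DESeq2 and 0 by limma, where 0.409% of all genes were called. At an unadjusted p under 0.05 there were 5, the smallest adjusted p was 0.382, and the value was positive in 36 of 40 members. For guide 5 against guide 1 the members' median was 0.10 without the first guide 5 library and 0.02 without the second. For all genes tested it was -0.00 in both. For guide 5 against sgEV the members' median was 0.15 without its first library and 0.03 without its second, with -0.01 and 0.00 for all genes. Without the first and the second sgEV library it was 0.08 and 0.10, with 0.01 and 0.00 for all genes. For guide 1 against sgEV it was 0.02 to 0.04 with any single library left out. The counts of calls moved with single libraries, over all genes tested as well as over the members.

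PSMD1 and PSMD2 stayed past the threshold under each of 14 alternative settings of the joint comparison. The counts of calls leaned on single libraries, over all genes tested as well as over the members. The members' median log2 fold change was 0.06 without the first or the second sgEV library. It was 0.06 without the first library of guide 1 and 0.05 without its second. Without the first library of guide 5 it was 0.09, and without its second 0.03. For all genes tested the median in these fits was -0.01 to 0.01. PSMB10 was lost without the first sgEV library (adjusted p = 0.0638), and PSMB3 (adjusted p = 0.0795) and PSME3 (adjusted p = 0.0559) without the second. The other 9 calls were lost without either, with adjusted p-values of 0.0531 to 0.167 without the first and 0.0558 to 0.352 without the second. DESeq2 did not call PSMA3, PSMA4, PSMB4, PSMB6, PSMC5 and PSMD3, with adjusted p-values of 0.0670 to 0.207. Scaled to the spike-in RNAs, the median log2 fold change of all genes was 0.11 and that of the members 0.17. In that setting 16 members rose and 0 fell, where 3136 of 13948 genes rose and 1169 fell. PSMA1, PSMA4 and PSMD3 lost their calls. Markers moved in the same libraries. Of 7 myeloid markers 4 rose and 1 fell. Their summed level was 5155 to 5187 CPM with guide 1 and 4800 to 4908 with guide 5, against 1654 to 1677 with sgEV. LYZ alone ran from 158 to 3726 CPM over these libraries, and none of the others exceeded 710 CPM, so the sum mostly follows LYZ. Of 4 monocytic markers, CD14 had no row, and CD68, ITGAM and CSF1R rose, with a summed level of 384 to 393 CPM with guide 1 and 340.3 to 353 with guide 5, against 200 to 211 with sgEV. Mitochondrial genes took 3.14 to 3.44% of counts in sgcMyc libraries, against 2.41 and 2.47% in sgEV libraries. The part of these in the members' values was not tested.

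cMyc binds the E-box, so the letters before the start of the members' transcripts are of interest here. RefSeq promoter windows of GRCh38.p14, which reach from 250 bases before to 50 bases after a start, matched 35 of the 40 members with 41 windows; PSMA7, PSMB1, PSMB6, PSMB7 and PSMD4 had none. The E-box CACGTG was in the windows of 3 members, which is 7.32% of the members' windows against 7.26% of all 35116. The antioxidant response element TGACNNNGC, which NFE2L1 recognises, was in those of 12 members (29.3%, against 13.3% of all), and the CCAAT box CCAAT, read by NF-Y, in those of 17 (41.5%, against 34.6%). Both strands were searched, and a match describes letters, not binding. The 250 bases before the start are shown for the 3 members with an E-box, because they did not move alike, on the plus strand, 5′ to 3′, with every match to one of the 3 motifs in capitals. They are PSMB3 at chr17:38752491-38752740, PSME3 at chr17:42833147-42833396 and PSMD9 at chr12:121888540-121888789.
PSMB3: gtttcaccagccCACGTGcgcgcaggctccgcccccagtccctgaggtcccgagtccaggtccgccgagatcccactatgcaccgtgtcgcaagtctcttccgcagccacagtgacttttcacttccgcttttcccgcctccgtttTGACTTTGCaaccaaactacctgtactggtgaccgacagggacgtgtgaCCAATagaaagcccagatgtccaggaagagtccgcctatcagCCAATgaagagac
PSME3: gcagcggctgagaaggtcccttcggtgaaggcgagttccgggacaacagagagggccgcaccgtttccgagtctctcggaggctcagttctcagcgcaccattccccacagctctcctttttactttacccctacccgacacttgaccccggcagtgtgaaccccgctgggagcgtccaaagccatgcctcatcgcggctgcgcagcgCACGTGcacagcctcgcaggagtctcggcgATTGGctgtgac
PSMD9: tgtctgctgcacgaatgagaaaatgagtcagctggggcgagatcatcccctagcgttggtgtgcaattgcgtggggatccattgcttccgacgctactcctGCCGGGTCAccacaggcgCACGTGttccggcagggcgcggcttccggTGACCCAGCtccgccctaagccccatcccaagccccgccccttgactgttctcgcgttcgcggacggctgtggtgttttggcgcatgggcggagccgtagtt
The E-box begins 238 bases before the start in PSMB3, 42 in PSME3 and 131 in PSMD9. PSMB3 and PSME3 rose with sgcMyc, while PSMD9 did not pass (log2 fold change 0.02 ± 0.06, adjusted p = 0.796) at 34.9 and 36.1 CPM with guide 1 and 36.5 and 39.2 with guide 5, against 35.2 and 36.9 with sgEV. PSMD1 and PSMD2, which rose too, had no E-box in their windows.

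In EOL-1 cells with sgEZH2 few members were called, none by more than 0.21 on the log2 scale. Of 39 members 1 rose and 4 fell, where 26.9% of the 13890 genes tested were called (15.1% higher and 11.8% lower), and the median log2 fold change was 0.00, against 0.01 for all genes tested. The sgEZH2 libraries lay above the control in 7 members and below it in 11, where 32.2% and 29.9% of all genes did so. By class, 1 of 15 core genes rose and 1 fell, 3 of 20 regulatory-particle genes fell, and none of the 4 activator genes passed. The member that rose was PSMB10, the inducible subunit, at 110.1 and 117 CPM with sgEZH2, against 96.5 and 99.9 with sgEV (log2 fold change 0.21 ± 0.04, adjusted p = 0.00102). It stayed past the threshold under each of 12 alternatives.

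The constitutive catalytic subunits lay close to their controls. PSMB5 was at 100.6 and 108 CPM with sgEZH2, against 110.5 and 109 (-0.08 ± 0.04, adjusted p = 0.209), PSMB6 at 77.6 and 81.5, against 84.0 and 81.2 (-0.05 ± 0.04, adjusted p = 0.407), and PSMB7 at 132 and 138, against 139 and 136 (-0.03 ± 0.04, adjusted p = 0.666). None of them passed. The alpha subunit PSMA1 fell, at 202 and 209 CPM, against 229 and 224 (-0.14 ± 0.03, adjusted p = 0.00412).

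In the regulatory particle, the assembly chaperone PSMD5 was at 26.1 and 26.8 CPM with sgEZH2, against 29.4 and 31.7 with sgEV (-0.21 ± 0.06, adjusted p = 0.0168). The lid subunit PSMD12 was at 58.0 and 58.4, against 66.7 and 63.9 (-0.17 ± 0.05, adjusted p = 0.00998), and PSMD2 at 246 and 253, against 261 and 269 (-0.09 ± 0.03, adjusted p = 0.0472). In all 3 the sgEZH2 libraries lay below the control. The activators were nearly level: PSME1 had 203 and 219 CPM, against 203 and 197 (0.08 ± 0.04, adjusted p = 0.164), PSME2 112 and 116, against 116 and 109 (0.02 ± 0.04, adjusted p = 0.814), PSME3 262 and 257, against 258 and 258 (0.01 ± 0.03, adjusted p = 0.849), and PSME4 99.7 and 94.3, against 101 and 101 (-0.05 ± 0.04, adjusted p = 0.367).

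The PSMA1 call was lost without the first sgEV library (adjusted p = 0.110), as was that of PSMD12 (adjusted p = 0.152), and the PSMD5 call without the second (adjusted p = 0.258). The call of PSMD2 was lost without either sgEV library (adjusted p = 0.142 and 0.460). DESeq2 did not call PSMD12 (adjusted p = 0.152), PSMD2 (adjusted p = 0.163) or PSMD5 (adjusted p = 0.274). By edgeR, PSMD2 was also lost with a mean of at least 50 counts (adjusted p = 0.0601) and without the robust step (adjusted p = 0.0669). A crossed replicate block, chosen after seeing the data, lost it too (edgeR adjusted p = 0.0581). The counts of calls moved with single libraries, over all genes tested as well as over the members. The members' median log2 fold change was -0.01 without the first sgEV library and 0.01 without the second. It was 0.00 without the first sgEZH2 library and -0.03 without the second. For all genes tested the median in these fits was -0.00 to 0.01.

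**Figure D3:**
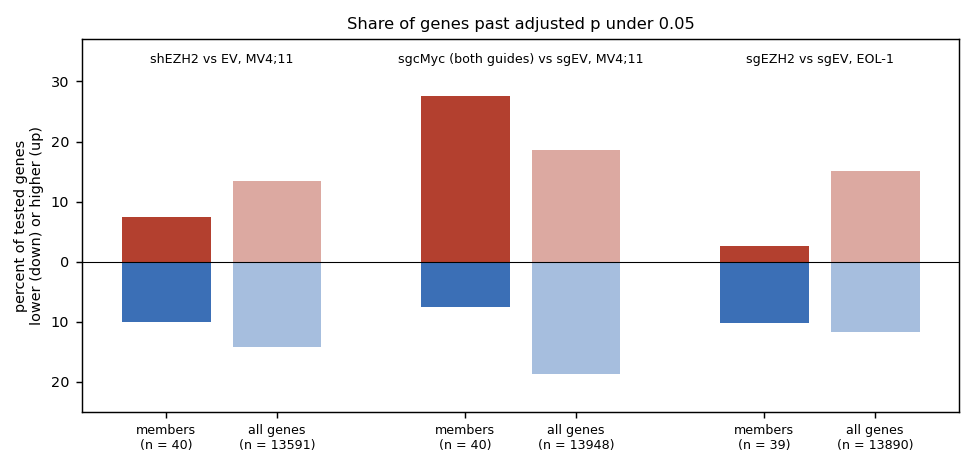
Percent of genes past an adjusted p of 0.05 (vertical axis), higher above the line and lower below it, for the members (dark bars) and for all genes tested (pale bars) in the 3 comparisons. The members' 11 of 40 higher with sgcMyc stand above the 18.6% of all genes, and the other 5 member bars stand below those of all genes.

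The EZH2 comparisons had no called member in common, in either pair of directions, where 3.55% of the genes tested in both rose in both, 2.68% fell in both, 1.75% rose in MV4;11 and fell in EOL-1, and 2.92% fell in MV4;11 and rose in EOL-1. The difference was tested as an interaction, the log2 fold change in MV4;11 minus that in EOL-1. Of 39 members 5 had a higher and 4 a lower effect in MV4;11, where 26.5% of the 13543 genes tested differed (12.5% higher and 14.1% lower). PSMA6 differed by 0.33 ± 0.05 (adjusted p = 0.000290), with a fold change of 0.27 in MV4;11 and -0.05 in EOL-1, both on the log2 scale. PSMB10 differed by -0.31 ± 0.06 (adjusted p = 0.00187), with -0.11 in MV4;11 and 0.21 in EOL-1, and PSME2 by -0.35 ± 0.08 (adjusted p = 0.00370), with -0.34 and 0.02. These 3 stayed past the threshold under all 14 alternatives. PSMB5 (0.24 ± 0.07, adjusted p = 0.0137) and PSMB7 (0.23 ± 0.06, adjusted p = 0.0130) had the higher effect in MV4;11, and PSMB6 did not differ past the threshold (0.09 ± 0.07, adjusted p = 0.334).

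The other 2 with a higher effect in MV4;11 were PSMD5 (0.32 ± 0.10, adjusted p = 0.0227) and PSMD12 (0.20 ± 0.06, adjusted p = 0.0342), both of which fell in EOL-1. The ATPase PSMC2 (-0.22 ± 0.07, adjusted p = 0.0225) and PSME1 (-0.20 ± 0.06, adjusted p = 0.0339) had the lower effect in MV4;11, though neither passed in MV4;11 or in EOL-1 alone. PSMD5-AS1, antisense to PSMD5, had a log2 fold change of 0.80 with shEZH2 and -0.02 in EOL-1, so the PSMD5 values carry the same doubt about strand. PSME3 (0.04 ± 0.05, adjusted p = 0.597) and PSME4 (0.15 ± 0.06, adjusted p = 0.0908) did not differ past the threshold. A hairpin was used in one line and a guide in the other, so the line and the method cannot be told apart. The other 6 calls were each lost without some single library, with adjusted p-values reaching 0.0560 for PSMB5, 0.0682 for PSMB7, 0.107 for PSMC2, 0.123 for PSMD5, 0.151 for PSMD12 and 0.154 for PSME1. The counts of calls moved with single libraries, over all genes tested as well as over the members. The members' median difference was -0.03 without the first EV library, -0.04 without the second shEZH2 library and -0.05 without the first sgEZH2 library. Without each of the other libraries it was -0.01 to 0.02. For all genes tested the median in these fits was -0.01 to 0.01.

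Few members were called both in an EZH2 comparison and with sgcMyc. PSMA4 fell with shEZH2 and with sgcMyc (4.47% of genes tested in both fell in both), and PSMB2 fell with shEZH2 and rose with sgcMyc (3.61%). PSMA1 fell with EOL-1 sgEZH2 and with sgcMyc (3.71%), PSMB10 rose in both (5.52%), and PSMD2 fell in EOL-1 and rose with sgcMyc (1.88%). No member rose with both sgcMyc and shEZH2 (3.43% of genes), fell with sgcMyc and rose with shEZH2 (3.02%), or fell with sgcMyc and rose in EOL-1 (3.08%).

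The inducible partners left out of the set moved beside PSMB10 in EOL-1, where PSMB8 rose by 0.55 and PSMB9 by 1.06 on the log2 scale, and PSMB9 fell by 0.61 with shEZH2 in MV4;11. Set over the constitutive subunit of the same ring position, as a ratio of CPM that says nothing of the proteins, PSMB8 over PSMB5 was 2.56 and 2.58 in EOL-1 sgEZH2 libraries, against 1.66 and 1.67 in sgEV libraries. PSMB9 over PSMB6 was 0.400 and 0.401, against 0.175 and 0.194. PSMB10 over PSMB7 was 0.837 and 0.849, against 0.695 and 0.735. All 3 ratios were higher in both sgEZH2 libraries. No test of the ratios is given here, and of single genes 32.2% lay wholly above the control in EOL-1. With shEZH2 in MV4;11, PSMB10 over PSMB7 was 0.951 and 0.962, against 1.18 and 1.18 in EV libraries. PSMB9 over PSMB6 was 0.149 and 0.166, against 0.227 and 0.266, and PSMB8 over PSMB5 was 1.17 and 1.26, against 1.30 and 1.33. All 3 were lower in both shEZH2 libraries, where 31.7% of single genes lay wholly below the control. The constitutive PSMB5 and PSMB7 were themselves called higher with shEZH2, though not by DESeq2 or with spike-in scaling. PSMB10 did not pass, so at these positions a lower ratio need not mean a lower inducible gene. At the remaining position PSMB6 did not pass, while PSMB9 fell. With sgcMyc, PSMB10 over PSMB7 was 1.27 and 1.30 with guide 1 and 1.22 and 1.28 with guide 5, against 0.978 and 0.987 with sgEV, higher in all 4 libraries. PSMB9 over PSMB6 was lower in all 4, at 0.253 and 0.216 with guide 1 and 0.206 and 0.228 with guide 5, against 0.270 and 0.288. PSMB6 itself rose with sgcMyc. Of single genes 26.6% lay above sgEV in all 4 libraries and 26.7% below. PSMB8 over PSMB5 was 1.32 and 1.35 with guide 1 and 1.19 and 1.22 with guide 5, against 1.19 and 1.14, and the guide 5 libraries overlapped the control. Myeloid markers rose with sgEZH2 too, all 7 of 7, with a summed level of 2468 to 2499 CPM, against 853 to 863 with sgEV, and 3 of 4 monocytic markers rose (129 to 131 CPM, against 62.9 to 63.4). Among the myeloid markers LYZ alone ran from 195 to 1654 CPM over the EOL-1 libraries, and none of the others exceeded 402 CPM. The myeloid sum therefore mostly follows LYZ. Mitochondrial genes took 1.14% of counts in both sgEZH2 libraries, against 1.06 and 1.05% in sgEV libraries. The part of these in the ratios and in the EOL-1 calls was not tested.

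**Figure D4:**
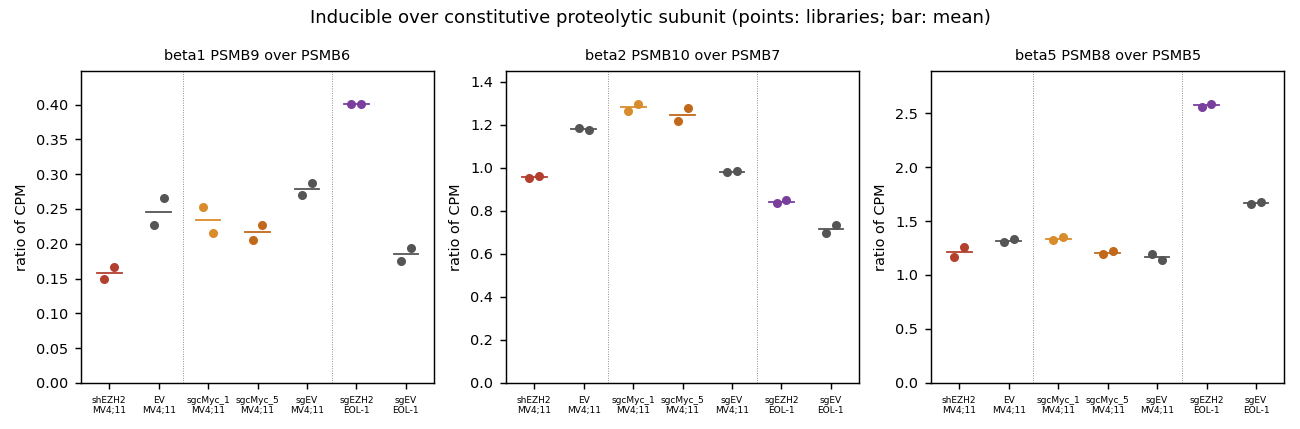
Ratio of CPM of the inducible over the constitutive subunit at each catalytic position (vertical axis, from 0), points for libraries and a bar for the group mean. In EOL-1 the sgEZH2 libraries lie above the sgEV libraries at all 3 positions, for example 2.56 and 2.58 against 1.66 and 1.67 for PSMB8 over PSMB5.

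The differences were small against those of other genes, though the genes were not matched for level. Apart from PSMA8 no member had fewer than 259 estimated counts in a library, while the other genes start lower. The part of level in this contrast was not tested. Among genes with a mean of at least 50 counts, 18.7% had an absolute log2 fold change above the largest of any member with shEZH2, 21.6% with sgcMyc and 25.7% in EOL-1. The 95% interval lay wholly within a fold change of 1.2 in either direction for 32 of 40 members with shEZH2 (80.0%, against 36.9% of those genes), 27 of 40 with sgcMyc (67.5%, against 31.2%) and 37 of 39 in EOL-1 (94.9%, against 51.5%). For these members a change of that size is outside the interval, given the spread between these libraries.

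Of 11 genes that control proteasome level or activity, 1 rose and 6 fell with sgcMyc, where 18.6% of all genes tested rose and 18.7% fell. NFE2L1, the activator of subunit genes, fell by 0.42 ± 0.04 (log2, adjusted p = 9.23e-06), and KIAA0368, which binds the 26S particle, by 0.42 ± 0.04 (adjusted p = 6.43e-06). The small Maf partners MAFF (-1.27 ± 0.14, adjusted p = 1.59e-05) and MAFG (-0.27 ± 0.04, adjusted p = 0.000285) fell too. With shEZH2, DDI2, the protease that activates NFE2L1, fell by 0.40 ± 0.07 (adjusted p = 0.00154), and 0 of 11 rose and 3 fell, where 13.4% of all genes rose and 14.2% fell. In EOL-1, 1 rose and 1 fell (15.1% and 11.8% of all genes), MAFG (0.29 ± 0.04) and MAFK (-0.24 ± 0.05). Assembly factors gave 0 calls of 6 with shEZH2, 1 with sgcMyc (PSMG1, -0.25 ± 0.07) and 1 in EOL-1 (PSMG3, -0.18 ± 0.05). The further subunits ADRM1 and SHFM1 and the inhibitor PSMF1 gave none in any comparison.

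Of 10 shuttle factors and proteasome-bound enzymes, 3 rose and 1 fell with shEZH2, 2 rose and 3 fell with sgcMyc, and 1 rose and 4 fell in EOL-1. Of all genes tested 27.7% were called with shEZH2, 37.3% with sgcMyc and 26.9% in EOL-1. UBQLN2, which carries substrates to the proteasome, rose by 0.23 ± 0.06 with shEZH2 (adjusted p = 0.0116) and 0.47 ± 0.06 with sgcMyc (adjusted p = 3.75e-05). RAD23B, another shuttle, fell by 0.17 ± 0.04 with shEZH2 (adjusted p = 0.0133) and rose by 0.21 ± 0.03 in EOL-1 (adjusted p = 0.000113). Of 9 inducible-subunit and antigen-processing genes, 3 rose and 2 fell with shEZH2, 2 rose and 2 fell with sgcMyc, and 8 rose and 0 fell in EOL-1, with a median log2 fold change of 0.46. These are 5, 4 and 8 calls of 9, beside the same 27.7%, 37.3% and 26.9% of all genes, and in EOL-1 15.1% of all genes rose.

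The members also moved together between libraries of one group. In sgcMyc_5 the second library was above the first in 34 of 40 members, with a median log2 difference of 0.12, against 53.5% and 0.01 for all genes with a mean of at least 50 counts. It was above in 32 of 39 members in EOL-1 sgEZH2 (median 0.05) and in 32 of 40 in EV (median 0.05). Of all such genes 50.8% and 49.4% were above in these groups. The other groups had 27 of 40 (sgcMyc_1), 27 of 40 (shEZH2), 24 of 40 (sgEV in MV4;11) and 22 of 39 (sgEV in EOL-1). There the share of all such genes was 50.1, 50.1, 49.9 and 50.1%, in the same order. Most member transcripts are short, with a median of 1165 bases over GENCODE 29 transcripts. Across all genes with a length, this difference had a correlation with log transcript length of -0.35 in sgcMyc_5, -0.28 in EV and -0.21 in EOL-1 sgEZH2. It was -0.12 in sgcMyc_1, -0.11 in shEZH2, -0.04 in sgEV of MV4;11 and -0.00 in sgEV of EOL-1. For the log2 fold changes of the comparisons the correlation with length was 0.07 (shEZH2), -0.07 (sgcMyc, both guides) and -0.03 (EOL-1 sgEZH2). The values within a group describe genes across one pair of libraries, and genes are not replicates. The part of this shift in the calls was not tested, and the medians without the first sgcMyc_5 library are given above.

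**Figure D5:**
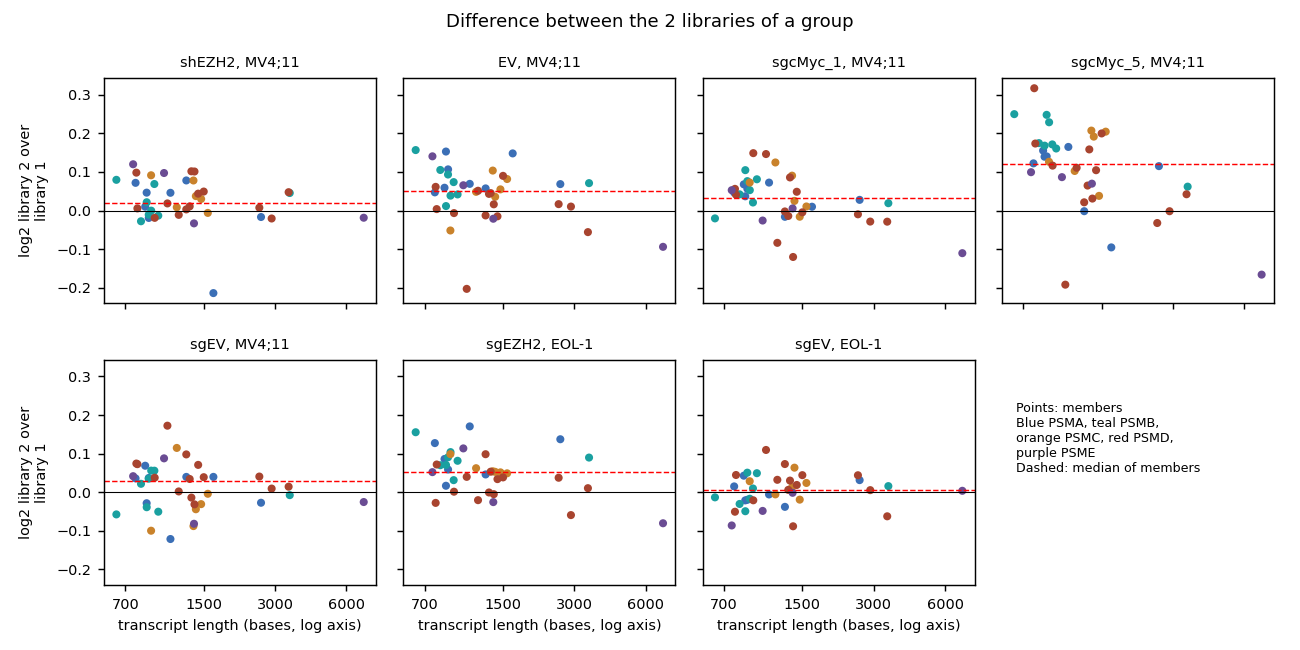
Log2 CPM of library 2 over library 1 (vertical axis) against transcript length in bases (log axis) for each member, one panel per group, with the median of the members dashed. The members of sgcMyc_5 have a median of 0.12 and those of sgEV in EOL-1 one of 0.01.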

How the data were processed

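RNA-seq of 14 libraries in 7 groups of 2 was used. Per the submitters' processing notes, RSEM, DESeq and the build hg19 were used by the authors, with no version, aligner, annotation, strand setting or row filter stated. The 3 deposited tables, 1 per comparison, hold estimated counts (expected counts that need not be whole) in their raw columns and log2 values made by the authors in their normalised columns, per the file headers. Column names abbreviate the sample titles, and each was assigned by its table's comparison together with the target, guide and replicate number, which is an inference.

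Estimated counts were rounded to whole numbers, filtered with filterByExpr, scaled by TMM (trimmed mean of M-values) and tested in edgeR 4.0.16 (R 4.3.3) with a robust quasi-likelihood fit within each table; both sgcMyc guides shared 1 fit with sgEV. Benjamini-Hochberg adjustment ran over all genes tested, with a threshold of 0.05. CPM use the same scaling, compare libraries of 1 table, and are not per length. The interaction was fitted on genes of both EZH2 tables. Intervals are 95% intervals from each gene's standard error. The fits were also run on simulated counts, drawn independently for each gene with a common spread. That setting differs from these libraries, and its outcome is not used here. Alternatives were DESeq2 1.42.0, limma 3.58.1 on the deposited log2 values, RLE size factors, other count filters, spike-in scaling (56 spike-in rows in MV4;11), a replicate block and leaving out each library.

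Named were EZH2, MYC, the catalytic subunits, PSMB10 and the PSME genes, up to 6 called members per class and comparison with the largest change, called members against the majority of their class, and up to 4 called genes per pathway list. A list of ubiquitin and E1 genes is not reported here. PSMA6P1, PSME2P2 and the antisense genes were named after their values were seen. The members and lists were chosen with earlier results of these data known. The reference used for promoters, GRCh38.p14, is another build than that of the counts.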

Additional observations from a re-analysis of the deposited data

Results flagged for a closer look

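The EZH2 effect differed between MV4;11 (shEZH2 minus EV) and EOL-1 (sgEZH2 minus sgEV), by edgeR's test of the interaction, in 9 members and in both inducible genes outside the set. On the log2 scale the effect in MV4;11 minus that in EOL-1 was 0.33 for PSMA6, 0.32 for PSMD5, 0.24 for PSMB5, 0.23 for PSMB7 and 0.20 for PSMD12. It was -0.35 for PSME2, -0.31 for PSMB10, -0.22 for PSMC2 and -0.20 for PSME1. It was -1.66 for PSMB9 and -0.50 for PSMB8. The hairpin and the guide, and the lines, cannot be told apart.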

How the results depend on the processing

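Each group had 2 libraries, and no fit at reduced depth was made. Each count, other than that of members lower with guide 5 than with guide 1, moved when single libraries were left out. The range was 1 to 4 higher and 1 to 10 lower for shEZH2, 3 to 18 and 0 to 4 for both sgcMyc guides, 2 to 11 and 0 to 3 for guide 1, 4 to 22 and 0 to 2 for guide 5, 0 to 7 and 0 to 0 for guide 5 minus guide 1, 1 to 7 and 1 to 8 for EOL-1, and 1 to 5 and 2 to 7 for the interaction. DESeq2 called 1 higher and 2 lower for shEZH2 (833 and 856 of 15025 genes) and 7 and 1 for both guides (1626 and 1542 of 15025). In EOL-1 it called 1 lower (646 of 15031). Spike-in scaling gave 1 and 2 for shEZH2 (805 and 1407 of 13591 genes) and 16 and 0 for both guides (3136 and 1169 of 13948). It gave 0 lower for guide 1 (1015 of 13948) and 20 higher for guide 5 (2984 of 13948). limma gave 1 lower for both guides (2517 of 13948 genes). A mean of at least 50 counts gave 1 lower for guide 5 (2048 of 10815 genes). Whether replicate numbers pair the samples is not stated. The correlation of deviations between same-numbered libraries was 0.28 for the guides and 0.17 for EV and shEZH2. It was -0.04 and -0.01 for sgEV with guides 1 and 5, and -0.25 in EOL-1. With the replicate block 8 members were lower for shEZH2 (2358 of 13591 genes) and 1 for guide 5 (2403 of 13948). For both guides 13 rose and 3 fell (2826 and 2831 of 13948 genes). A crossed replicate block for EOL-1, chosen after seeing the data, gave 1 higher and 3 lower (2199 and 1724 of 13890 genes). Over single genes, 4468 values stayed on their side of the threshold, 287 lost and 103 gained a call. The causes were not tested.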
